A study of Mus musculus with 5 samples.

Results

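The comparison described here sets the second wave of the response to a seizure against its early phase: the hippocampus of mice 4 h after the onset of seizures against the hippocampus 1 h after it. Its members were chosen by their sample titles and number 3 of the 5 RNA sequencing libraries of the study, 1 library at 1 h and 2 at 4 h. The other 2 libraries, an untreated control and an 8 h time point, were used to place each gene before and after this interval. All animals were 3-month-old male C57/bl6 mice. The 1 h, 4 h and 8 h animals received 20 mg/kg of kainic acid, an agonist of glutamate receptors that excites hippocampal neurons, by intraperitoneal injection, and the control animals were labelled untreated. The treatment protocol also names vehicle injections and SL327, an inhibitor of the kinase MEK, which acts upstream of many immediate early genes. No label of a sample carries SL327, and the libraries were taken as made without it. Whether a library holds the RNA of 1 mouse is not stated in the sources used here, and no library of another anatomical region was part of the comparison. The 4 h libraries are called the first and the second, in the order of their titles, and values of the 4 h pair are given in that order.

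Activity that drives neurons to fire strongly switches on immediate early genes, many of which encode transcription factors and need no new protein synthesis for their own transcription. Their protein products and the signalling that remains active then act on later genes, which encode secreted factors, synaptic proteins and enzymes. Most immediate early transcripts are unstable and are held in check by feedback, through phosphatases that end kinase signalling and proteins that speed the decay of messenger RNA.

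The deposited values are numbers of reads counted on 55385 genes, joined over all exons and splice forms of a gene. Reads on genes numbered 17744508 at 1 h and 18250114 and 19109204 in the first and the second 4 h library, beside 19100374 in the control and 16612225 at 8 h. Levels are given as normalized CPM, the read count of a gene scaled to a common library total after correction by the trimmed mean of M values (TMM). Such values compare a gene across libraries and are not corrected for gene length, so levels were not compared between genes. A count of 3, taken as the floor, was worth between 0.151 and 0.178 normalized CPM. Intervals given with ratios are exact 95% intervals and cover counting error only.

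The labelled tissue was checked against marker genes. The summed level of 6 neuronal markers, with Snap25 holding the most counts, was 4065 normalized CPM at 1 h and 4117 and 3733 in the 4 h libraries. Markers of CA1 pyramidal cells (4 genes) summed to 301 at 1 h and to 242 and 279.98 at 4 h, and those of CA3 pyramidal cells (4 genes) to 275, 288 and 383. Markers of dentate granule cells (5 genes) summed to 316 at 1 h and to 282 and 235 at 4 h. All of these genes had counts in each of the 3 libraries.

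The first 4 h library stood apart in its markers of tissue next to the hippocampus. The 5 choroid plexus markers summed to 3953 normalized CPM in the control, 1670.5 at 1 h, 26.7 in the first 4 h library, 4203 in the second and 3049.5 at 8 h, so the first 4 h library was 62.6-fold below the 1 h library. All 5 were at least 2-fold lower in the first 4 h library than at 1 h, and 4 of 5 were at least 2-fold higher in the second. None was at 0. Ttr, the transport protein transthyretin and the member with the most counts, had 74570 counts in the control, 27643 after 1 h, 275 and 75088 in the 4 h pair and 50562 after 8 h. The 3 markers of thalamic neurons summed to 59.4 in the control, 60.6 after 1 h, 297 and 124.8 in the 4 h pair and 49.3 after 8 h, and all 3 were at least 2-fold higher in the first 4 h library, against 1 of 3 in the second. Prkcd, a protein kinase C and the member with the most counts, had 27.0 normalized CPM in the control, 29.0 after 1 h, 199 and 78.9 in the 4 h pair and 23.8 after 8 h. Because of these differences, results are given for each 4 h library on its own. A gene entered a class when both 4 h libraries passed, and Prkcd itself did so and is a late-start gene, as defined with the classes, so this rule does not remove markers of neighbouring tissue. The part of these marker lists in the results was not tested.

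The other marker lists had smaller differences from the 1 h library than the choroid plexus list. On the log2 scale the summed level of 4 fibroblast or meningeal markers was above the 1 h library by 0.59 and 0.65 in the first and the second 4 h library. That of 5 red blood cell markers was above it by 1.07 and 0.40, with Hbb-bs holding the most counts and 4 of 5 at least 2-fold higher in the first. Their sums were 135 in the control, 113 after 1 h, 237 and 149.6 in the 4 h pair and 182 after 8 h. The 3 ependymal markers gave -0.55 and 1.20. The 4 neutrophil markers gave -0.78 and -0.34 with at most 20 counts for a gene in any of the 3 libraries, and Ngp and Camp were at 0 in the first 4 h library. Markers of astrocytes gave 0.20 and 0.14, of oligodendrocytes -0.08 and 0.29, of their precursors -0.05 and 0.21, of microglia -0.33 and -0.26, of endothelial cells 0.16 and -0.19, and of cortical neurons 0.36 and -0.57. In tissue RNA, fewer cells of a type and less RNA per cell cannot be told apart.

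**Figure D1:**
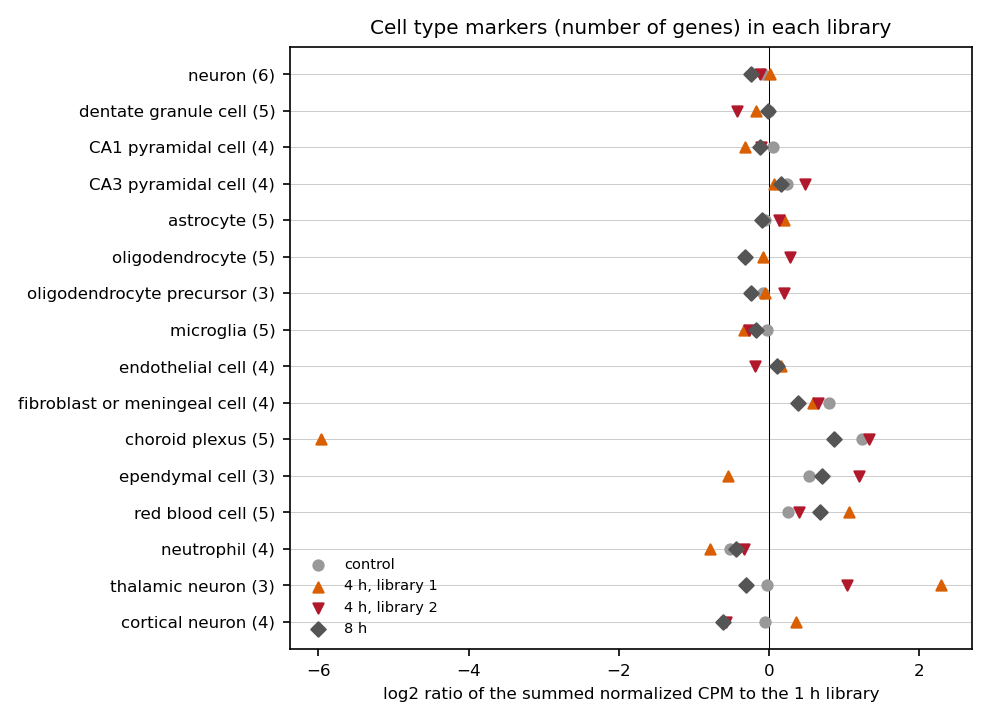
Log2 ratio of the summed normalized CPM of each marker list to the 1 h library (horizontal axis), with 1 symbol for the control, for each 4 h library and for the 8 h library; the number of genes is given beside each list. Choroid plexus markers sit at -5.97 in the first 4 h library and at 1.33 in the second, and thalamic markers at 2.29 and 1.04.

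The comparison asks which transcripts begin after the early phase and which early transcripts are already gone. Across the 19768 genes with enough counts for the test, edgeR with Benjamini-Hochberg adjustment called 1 gene higher at 4 h than at 1 h (0.00506%) and 0 genes lower (0%). With 1 library at 1 h, the fit had 1 residual degree of freedom, from the 4 h pair. At an unadjusted p under 0.05 the same edgeR test gave 909 genes higher and 660 lower. DESeq2, run as an alternative, called 94 genes higher (0.476%) and 15 lower (0.0759%) after its own Benjamini-Hochberg adjustment. Of the 19768 genes, 6516 got no adjusted p from DESeq2 and could not be called by it. With median-of-ratios size factors in place of TMM, edgeR called 0 genes in either direction, with 887 higher and 628 lower at an unadjusted p under 0.05. An exact permutation of 2 libraries against 1 cannot go below a p of 0.333. The classes that follow are therefore descriptions by fold, in both 4 h libraries, and not tests.

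Of 12428 genes that reached 5 normalized CPM in at least 1 of the 3 libraries, 194 were at least 2-fold higher in both 4 h libraries than at 1 h (1.56%) and 90 were at least 2-fold lower in both (0.724%). Taken alone, the first 4 h library gave 629 genes higher and 285 lower, and the second gave 312 higher and 250 lower. The log2 ratio between the 4 h libraries had an SD of 0.53 over these genes, and 623 of them (5.01%) differed at least 2-fold within the pair. Among them were 43 genes, the choroid plexus markers Ttr, Kl, Folr1 and Aqp1 included, that were at least 2-fold away from the 1 h library in opposite directions. The median log2 ratio to the 1 h library over all 12428 genes was -0.03 in the first and -0.01 in the second 4 h library.

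The control library divided these genes further. A class of 117 late-start genes was within 1.5-fold of the control at 1 h and then at least 2-fold above both the control and the 1 h library in both 4 h libraries. A class of 9 climbing genes was already at least 2-fold above the control at 1 h and at least 2-fold higher again at 4 h. A class of 52 shut-off genes was at least 2-fold above the control at 1 h and at least 2-fold lower in both 4 h libraries than at 1 h. A class of 24 late-low genes was level with the control at 1 h and at least 2-fold lower in both 4 h libraries than in either. Outside the classes were 68 genes with higher and 14 with lower values. The ratio of 1 h to control and the ratio of 4 h to 1 h share the same 1 h library, so an error in that library enters both.

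**Figure D2:**
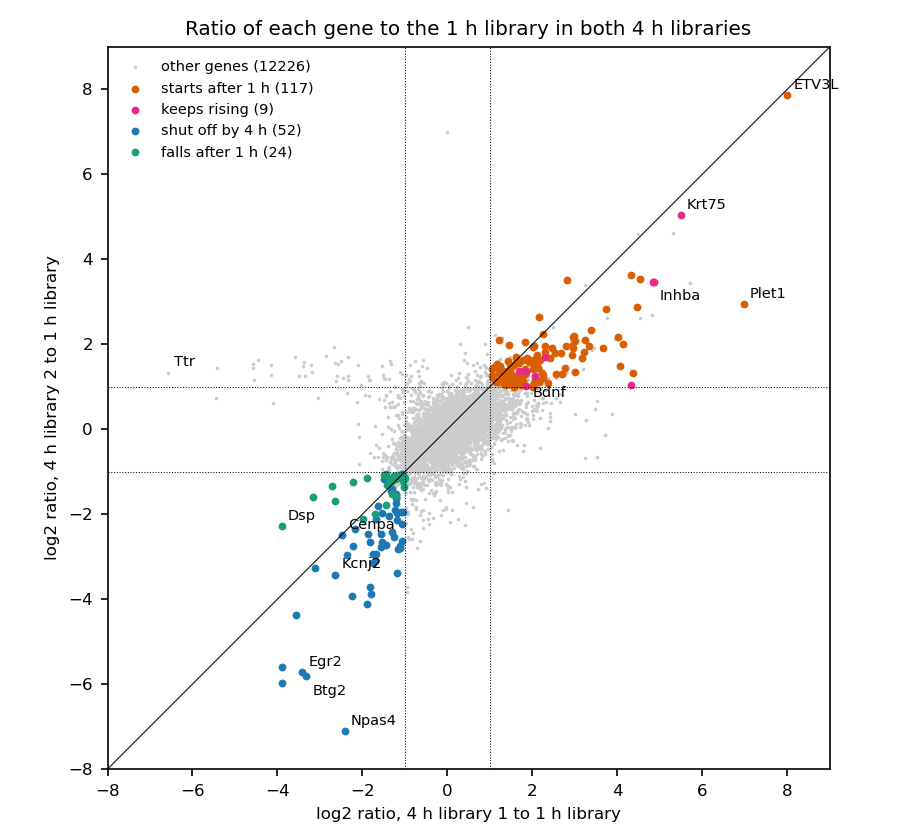
Log2 ratio of each of 12428 genes to the 1 h library, for the first 4 h library (horizontal axis) and the second (vertical axis); each point is a gene, colours mark the classes, dotted lines mark 2-fold and the solid line marks equal ratios. ETV3L lies at 8.00 and 7.86 and Npas4 at -2.42 and -7.11, while Ttr lies at -6.58 and 1.34.

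The pair did not give equal ratios in the classes. Over all genes the first 4 h library was above the second in 6209 of 12428 (49.96%), whereas it was above the second in 96 of the 117 late-start genes, in 9 of 9 climbing genes, in 49 of 52 shut-off genes and in 9 of 24 late-low genes. The median log2 ratio to the 1 h library in the first and the second 4 h library was 1.93 and 1.42 in the late-start class, 2.31 and 1.36 in the climbing class, -1.55 and -2.64 in the shut-off class and -1.38 and -1.24 in the late-low class. So in the second library the late genes were less high and the early genes were lower.

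Among the late-start genes, ETV3L (ENSMUSG00000118505.1), which the files name in capitals and which encodes a factor of the ETS family, was the 1 gene called by edgeR. It had 1 count in the control, 2 after 1 h, 963 and 982 in the 4 h pair and 365 after 8 h. The libraries before 4 h were thus at or under the floor, while both 4 h libraries were far above it and lay close together. With 2 counts at 1 h, the ratio to the 1 h library was 503-fold with an interval from 139 to 4156 in the first 4 h library, and 456-fold with an interval from 126 to 3774 in the second. The edgeR log2 fold change was 7.93, with a Benjamini-Hochberg adjusted p of 0.0444. The identifier was not found in the GENCODE annotation used for positions. It was matched to RefSeq by symbol alone, where Etv3l lies on chromosome 3 beside Etv3, with 9728 bases between them.

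Etv3 (ENSMUSG00000003382.18), the neighbour, is a transcriptional repressor of the same family and belonged to the climbing class. It had 38.7 normalized CPM in the control, 81.4 after 1 h, 294 and 209.7 in the 4 h pair and 77.1 after 8 h. It was thus raised at 1 h and higher again in both 4 h libraries, by 3.61-fold and 2.57-fold over 1 h. Whether reads that run on past the end of Etv3 were counted on ETV3L was not tested.

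Sp7 (ENSMUSG00000060284.7), a zinc-finger transcription factor best known from bone, had 1.10 normalized CPM in the control, 1.14 after 1 h, 24.7 and 15.3 in the 4 h pair and 2.16 after 8 h. Baz1a (ENSMUSG00000035021.13), a subunit of chromatin remodelling complexes, had 2.26 normalized CPM in the control, 2.67 after 1 h, 64.9 and 32.2 in the 4 h pair and 6.61 after 8 h. Both were level with the control at 1 h and highest in the 4 h libraries, and Baz1a was still more than 2-fold above the control at 8 h. The 4 h libraries gave a log2 ratio to 1 h of 4.32 and 3.63 for Sp7 and 4.55 and 3.54 for Baz1a. Neither passed edgeR, with a Benjamini-Hochberg adjusted p of 0.390 for Sp7 and 0.390 for Baz1a, whereas DESeq2 called both.

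Srxn1 (ENSMUSG00000032802.8), which encodes sulfiredoxin and restores oxidized peroxiredoxins, had 67.2 normalized CPM in the control, 91.7 after 1 h, 719.7 and 418 in the 4 h pair and 154 after 8 h. Sult2b1, a sulfotransferase for cholesterol and other sterols, had 7.13 normalized CPM in the control, 8.24 after 1 h, 86.3 and 42.0 in the 4 h pair and 11.8 after 8 h. Values in the 4 h libraries were 7.85-fold and 4.56-fold the 1 h value for Srxn1 and 10.5-fold and 5.10-fold for Sult2b1. At 8 h both genes had come most of the way back to the control, though Srxn1 was still more than 2-fold above it.

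Acan (ENSMUSG00000030607.7), which encodes aggrecan, a proteoglycan of perineuronal nets, had 5.27 normalized CPM in the control, 7.45 after 1 h, 123 and 34.0 in the 4 h pair and 7.29 after 8 h. Gipr, the receptor for glucose-dependent insulinotropic polypeptide, had 1.05 normalized CPM in the control, 1.42 after 1 h, 20.2 and 10.8 in the 4 h pair and 2.73 after 8 h. Slco5a1, a member of the organic anion transporter family, had 2.81 normalized CPM in the control, 3.92 after 1 h, 31.4 and 18.01 in the 4 h pair and 8.77 after 8 h. For Acan the first 4 h library was 3.61-fold above the second, and both were above all other libraries for these 3 genes. At 8 h Acan was within 2-fold of the control, while Gipr and Slco5a1 were still more than 2-fold above it.

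Other late-start genes with the largest ratios were less even or had few reads. Plet1, a membrane-anchored protein of progenitor cells, had 5 counts in the control, 4 after 1 h, 715 and 47 in the 4 h pair and 8 after 8 h, so the first 4 h library was 17.1-fold above the second. 2610042L04Rik, a member of a multigene family of near-identical copies, had 10 counts in the control, 7 after 1 h, 188 and 69 in the 4 h pair and 8 after 8 h, and reads of such copies are hard to assign. Crybg2, a protein with crystallin domains, had 19 counts in the control, 17 after 1 h, 84 and 95 in the 4 h pair and 41 after 8 h. Its 4 h libraries were nearly equal, at 5.16-fold and 5.19-fold the 1 h value. Gm49542, a long non-coding RNA, was the exception in time, with 17 counts in the control, 20 after 1 h, 146 and 266 in the 4 h pair and 308 after 8 h, its highest normalized level being at 8 h. It lies within the span of Gm6999, another long non-coding gene of this class.

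Further members of the class are named here after their values were seen, and how many genes of their families were compared was not counted. They included the kinases Mapk4, Mapk6, Mapk7, Mapkapk2 and Mapkapk3. Mapkapk3 had 2.51 normalized CPM in the control, 1.82 after 1 h, 18.03 and 8.19 in the 4 h pair and 3.59 after 8 h. G protein-coupled receptors of the class included Gipr, Sstr2, Vipr1, Htr4 and Drd1, and Sstr2, a somatostatin receptor, had 8.88 normalized CPM in the control, 9.09 after 1 h, 51.0 and 34.4 in the 4 h pair and 19.3 after 8 h. Hmox1, heme oxygenase, had 3.76 normalized CPM in the control, 3.86 after 1 h, 19.6 and 13.9 in the 4 h pair and 11.8 after 8 h. Hbegf, Angptl4 and Pappa, which encode secreted or shed proteins, were also in the class, as was Brinp1, a neuronal protein with 241 normalized CPM in the control, 286 after 1 h, 1286 and 888 in the 4 h pair and 436 after 8 h.

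Of the 117 late-start genes, 105 were annotated as protein coding, beside 11619 of the 12428 genes compared. At 8 h, 75 of the 117 were within 2-fold of the control again and 41 were still at least 2-fold above it.

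**Figure D3:**
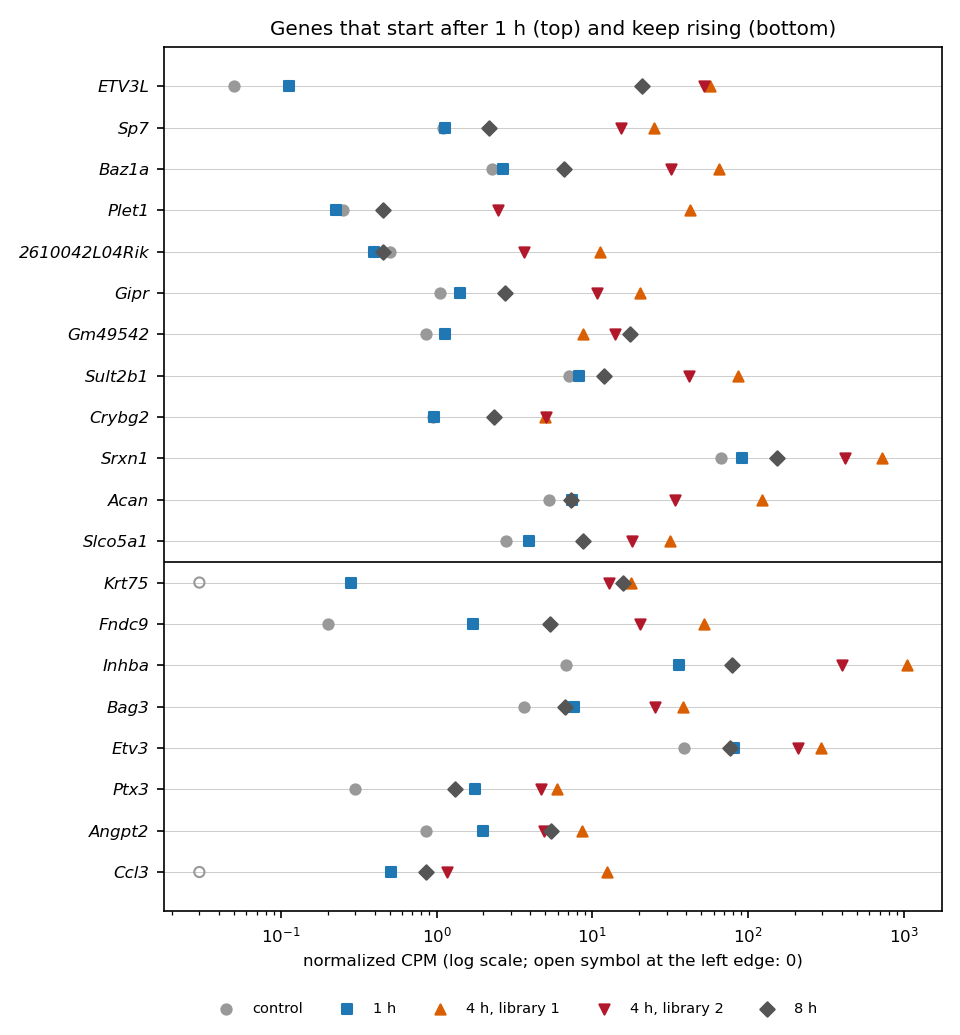
Normalized CPM on a log scale (horizontal axis) of the 12 late-start genes with the largest ratios (top) and of 8 climbing genes (bottom), with 1 symbol for each of the 5 libraries; open symbols at the left edge stand for 0 counts. For Srxn1 the 4 h libraries lie at 719.7 and 418, against 91.7 at 1 h, and for Inhba at 1042 and 401, against 36.0.

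The 9 climbing genes were already raised at 1 h. Krt75, a keratin, had 0 counts in the control, 5 after 1 h, 297 and 243 in the 4 h pair and 276 after 8 h. Its rise at 1 h rests on these 5 counts, and the interval of its ratio to the control begins at 1.04. Its 4 h values were 62.0-fold (interval 26.3 to 192) and 45.2-fold (interval 19.09 to 140.4) the 1 h value, and it stayed high at 8 h. Inhba (ENSMUSG00000041324.14), which encodes the subunit of the secreted factor activin A, had 6.78 normalized CPM in the control, 36.0 after 1 h, 1042 and 401 in the 4 h pair and 79.4 after 8 h. Nptx2, a secreted pentraxin that gathers glutamate receptors at synapses, had 17.3 normalized CPM in the control, 198 after 1 h, 720.5 and 401 in the 4 h pair and 89.8 after 8 h. Both had their highest values in the first 4 h library, 2.60-fold and 1.80-fold above the second.

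Fndc9, a membrane protein with a fibronectin domain, had 0.201 normalized CPM in the control, 1.71 after 1 h, 52.5 and 20.1 in the 4 h pair and 5.36 after 8 h. Bag3, a partner of heat shock proteins in selective autophagy, had 3.66 normalized CPM in the control, 7.67 after 1 h, 38.4 and 25.4 in the 4 h pair and 6.72 after 8 h. Angpt2, a ligand of the endothelial receptor Tie2, had 0.853 normalized CPM in the control, 1.99 after 1 h, 8.60 and 4.86 in the 4 h pair and 5.41 after 8 h. All 3 were higher in both 4 h libraries than in the control or at 1 h. Ptx3, another pentraxin, had 6 counts in the control, 31 after 1 h, 100 and 89 in the 4 h pair and 23 after 8 h. The chemokine Ccl3 had 0 counts in the control, 9 after 1 h, 208 and 22 in the 4 h pair and 15 after 8 h, and it passed in the second 4 h library only just, at 2.27-fold with an interval from 1.01 to 5.61. At 8 h, 7 of the 9 were still at least 2-fold above the control.

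Genes higher at 4 h can fall outside the classes when the 1 h library lies away from the control. Cda, cytidine deaminase, had 10 counts in the control, 3 after 1 h, 185 and 129 in the 4 h pair and 63 after 8 h. With 3 counts at 1 h, its ratio was 64.4-fold (interval 21.7 to 315) and 40.0-fold (interval 13.4 to 196). Lcn2, the secreted iron-scavenging protein lipocalin, had 6 counts in the control, 2 after 1 h, 83 and 101 in the 4 h pair and 101 after 8 h, a ratio of 43.3-fold (interval 11.6 to 364) and 46.9-fold (interval 12.7 to 393). The pair was close for Lcn2 and its 8 h value was as high.

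Further genes outside the classes were chosen after their values were seen. Blnk, an adaptor protein of immune signalling, had 2.46 normalized CPM in the control, 4.60 after 1 h, 44.1 and 49.7 in the 4 h pair and 15.4 after 8 h, and Tll1, a secreted metalloprotease, had 4.57 normalized CPM in the control, 7.33 after 1 h, 101 and 45.8 in the 4 h pair and 26.2 after 8 h. Tet3, an enzyme that oxidizes methylated cytosine, had 51.2 normalized CPM in the control, 92.4 after 1 h, 480.4 and 213 in the 4 h pair and 71.6 after 8 h. All 3 were between 1.5-fold and 2-fold above the control at 1 h and higher in both 4 h libraries. Shox2, a homeobox factor, had 8 counts in the control, 3 after 1 h, 245 and 56 in the 4 h pair and 1 after 8 h, a ratio of 85.2-fold (interval 28.8 to 416) in the first and 17.3-fold (interval 5.64 to 86.7) in the second 4 h library. Tnnt1, a troponin, was 4.45-fold and Vipr2, a receptor for vasoactive intestinal peptide, 3.98-fold higher in the first than in the second 4 h library. For these 3 genes, as for the thalamic markers, the first 4 h library was the highest of all 5, and the part of neighbouring tissue was not tested.

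The opposite movement, from a peak at 1 h, is what the 52 shut-off genes share. Egr2 (ENSMUSG00000037868.15), a zinc-finger factor of the early growth response family, had 2.41 normalized CPM in the control, 212 after 1 h, 19.8 and 3.91 in the 4 h pair and 1.20 after 8 h. Btg2 (ENSMUSG00000020423.6), an antiproliferative protein that recruits the machinery of messenger RNA decay, had 16.2 normalized CPM in the control, 689.6 after 1 h, 68.6 and 12.2 in the 4 h pair and 16.4 after 8 h. Npas4 (ENSMUSG00000045903.9), an activity-dependent transcription factor of neurons, had 3.91 normalized CPM in the control, 694 after 1 h, 129.9 and 4.91 in the 4 h pair and 5.13 after 8 h. In all 3 the second 4 h library was near the control while the first was well above it. The 1 h value exceeded the 4 h values by 10.7-fold and 54.2-fold for Egr2, by 10.1-fold and 56.5-fold for Btg2 and by 5.34-fold and 141-fold for Npas4.

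Other shut-off genes were closer within the pair. Kcnj2 (ENSMUSG00000041695.2), an inwardly rectifying potassium channel, had 18.6 normalized CPM in the control, 225 after 1 h, 36.1 and 20.8 in the 4 h pair and 17.4 after 8 h. Cenpa, the histone variant that marks centromeres, had 1.20 normalized CPM in the control, 97.4 after 1 h, 17.3 and 17.1 in the 4 h pair and 1.88 after 8 h, and the 1 h value was 5.64-fold and 5.69-fold the 4 h values. Gm45902, a predicted protein-coding gene, had 9.69 normalized CPM in the control, 101 after 1 h, 21.5 and 14.8 in the 4 h pair and 12.4 after 8 h. Kcnj2 was back within 2-fold of the control in both 4 h libraries, while Cenpa at 4 h was still far above its control level. The edgeR test called neither, with a Benjamini-Hochberg adjusted p of 0.390 for Kcnj2 and 0.210 for Cenpa, whereas DESeq2 called both.

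How far a shut-off gene had returned depended on the 4 h library. In the first, 20 of 52 were back within 2-fold of the control, in the second 42, and in both 19. In both 4 h libraries 9 of the 52 were still at least 2-fold above the control. At 8 h, 49 of 52 were within 2-fold of it.

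The same was read from the other side. At 1 h, 310 of the 12428 genes were at least 2-fold above the control. Of these 310, 52 were the shut-off genes (16.8%) and 9 the climbing genes (2.90%). A further 86 were at least 2-fold below their 1 h value in the second 4 h library only and 0 in the first only, whereas 37 were at least 2-fold above it in the first only and 3 in the second only; 1 gene was in both the 86 and the 37. Another 124 stayed within 2-fold of the 1 h value in both. Compared with the control, 123 of the 310 (39.7%) were still at least 2-fold above in both 4 h libraries, and 60 (19.4%) were back within 2-fold in both. Back within 2-fold were 64 in the first and 183 in the second 4 h library, and 295 of the 310 (95.2%) had a lower level in the second than in the first.

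**Figure D4:**
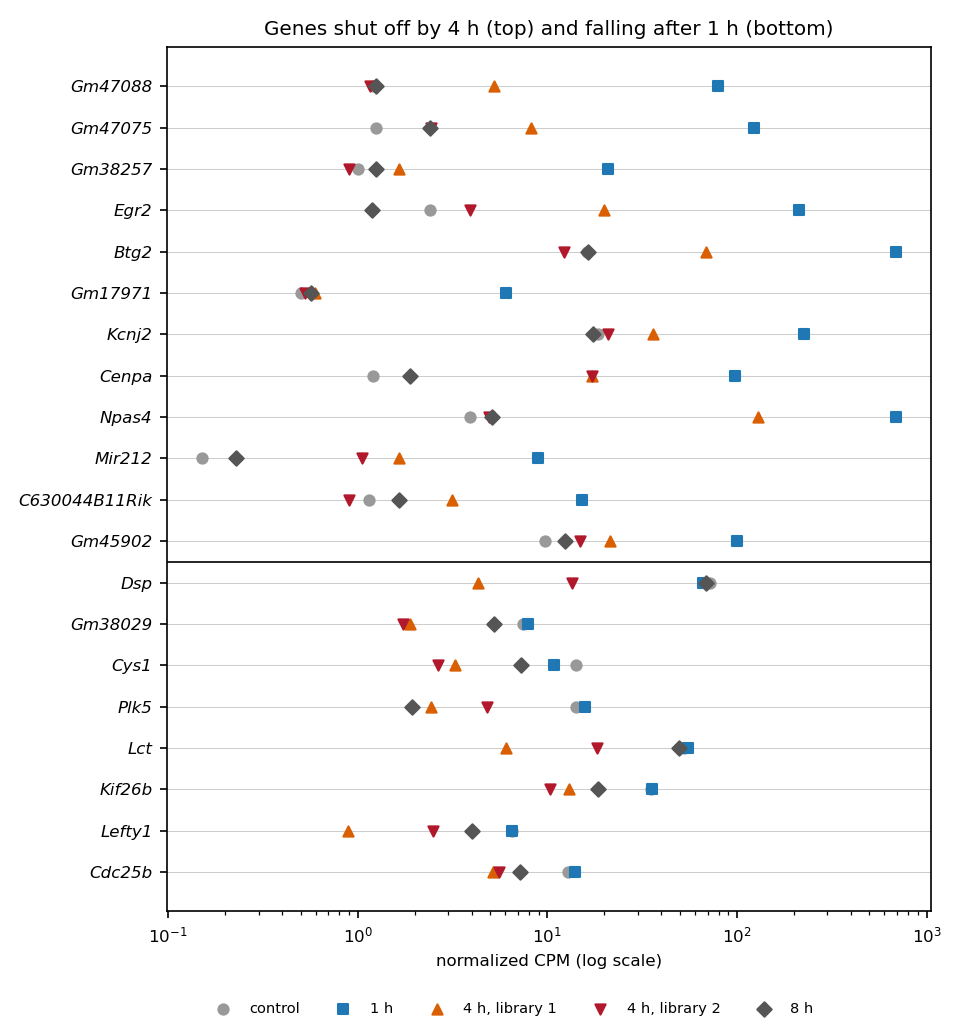
Normalized CPM on a log scale (horizontal axis) of the 12 shut-off genes (top) and the 8 late-low genes (bottom) with the largest ratios, with 1 symbol for each of the 5 libraries. Btg2 lies at 689.6 at 1 h and at 68.6 and 12.2 at 4 h, and Dsp lies at 66.0 at 1 h and at 4.33 and 13.6 at 4 h.

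A share of the shut-off genes was not protein coding: 20 of 52, beside 808 of the 12428 genes compared. Of the 20, 12 carried the annotation class TEC, given to transcripts that still await an experimental check. By GENCODE release M21, 17 of these 20 lay inside a protein-coding gene on the same strand and touched none of its exons. Of all 808 genes compared that were not protein coding, 332 (41.1%) did so. For 8 of the 17 the surrounding gene was at least 2-fold above the control at 1 h, and for 5 of these 8 it remained so in both 4 h libraries. For 0 of the 17 was it in the shut-off class itself. These counts are of loci and not of distinct surrounding genes, because Homer1, Slc16a1 and Mbnl1 each hold more than 1 of the 17.

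Gm47088 and Gm47075 lie within Homer1, which encodes a scaffold protein of synapses and is known for a short form made during activity. Gm47088 had 1.20 normalized CPM in the control, 79.5 after 1 h, 5.22 and 1.16 in the 4 h pair and 1.253 after 8 h. Gm47075 had 1.255 normalized CPM in the control, 123 after 1 h, 8.19 and 2.43 in the 4 h pair and 2.39 after 8 h. Homer1 as a whole had 217 normalized CPM in the control, 1332 after 1 h, 3759.9 and 1348 in the 4 h pair and 306 after 8 h. The intronic pair thus peaked at 1 h and was lower by 15.2-fold and 68.4-fold (Gm47088) and by 15.04-fold and 50.7-fold (Gm47075), while the counts on Homer1 were above the 1 h value in the first 4 h library and level with it in the second.

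Gm38257, inside Arl5b, a small GTPase gene, had 1.00 normalized CPM in the control, 20.8 after 1 h, 1.66 and 0.898 in the 4 h pair and 1.253 after 8 h, and Arl5b itself had 41.8 normalized CPM in the control, 395 after 1 h, 220.0 and 66.3 in the 4 h pair and 43.2 after 8 h. Gm17971, inside Coq10b, a gene for coenzyme Q binding, had 10 counts in the control, 106 after 1 h, 10 and 10 in the 4 h pair and 10 after 8 h, and Coq10b had 19.3 normalized CPM in the control, 90.6 after 1 h, 53.9 and 25.4 in the 4 h pair and 23.1 after 8 h. C630044B11Rik, inside the neurotrophin receptor gene Ntrk2, had 1.15 normalized CPM in the control, 15.2 after 1 h, 3.14 and 0.898 in the 4 h pair and 1.65 after 8 h, and Ntrk2 had 565 normalized CPM in the control, 737 after 1 h, 1299.6 and 975 in the 4 h pair and 571 after 8 h. Gm38257 and Gm17971 were lower at 4 h by more than the genes around them, and C630044B11Rik was lower while Ntrk2 was above its 1 h value in both 4 h libraries. Whether these reads came from unspliced RNA of the surrounding gene was not tested.

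Mir212 was the shut-off gene among the microRNA loci named here. It had 3 counts in the control, 157 after 1 h, 28 and 20 in the 4 h pair and 4 after 8 h, and the neighbouring Mir132, which was not in a class, had 4 counts in the control, 104 after 1 h, 59 and 29 in the 4 h pair and 7 after 8 h. Their host transcript 1700016P03Rik, a processed transcript with 74.3% of its exon length overlapped by a gene on the opposite strand, had 41 counts in the control, 1553 after 1 h, 620 and 286 in the 4 h pair and 68 after 8 h. The 1 h value of Mir212 was 5.37-fold and 8.45-fold the 4 h values, that of Mir132 1.69-fold and 3.86-fold, and that of the host 2.40-fold and 5.84-fold. In libraries of total RNA these are reads on hairpin loci within a longer transcript and not mature microRNAs. The mature 3p forms are printed from RefSeq (GRCm38.p6, plus strand, chr11:75173443-75173464 and chr11:75173723-75173744) because both share the seed, bases 2 to 8, in capitals.
miR-212-3p: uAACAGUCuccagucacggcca
miR-132-3p: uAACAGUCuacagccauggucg

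The 24 late-low genes were level with the control at 1 h and low at 4 h. Dsp (ENSMUSG00000054889.10), desmoplakin, a junction protein that marks dentate granule cells, had 72.1 normalized CPM in the control, 66.0 after 1 h, 4.33 and 13.6 in the 4 h pair and 68.4 after 8 h. Lct, lactase, another granule cell marker, had 52.4 normalized CPM in the control, 55.4 after 1 h, 6.05 and 18.2 in the 4 h pair and 49.5 after 8 h. Both were lower in the first 4 h library than in the second and at the control level again at 8 h. The 1 h value was 15.2-fold and 4.86-fold the 4 h values for Dsp and 9.15-fold and 3.04-fold for Lct.

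The whole list of 5 granule cell markers did not move together. C1ql2, a secreted protein of mossy fibre synapses, had 29.3 normalized CPM in the control, 27.9 after 1 h, 11.0 and 11.7 in the 4 h pair and 58.1 after 8 h, which made it the third member in the late-low class. Prox1, the transcription factor of granule cell identity and the member with the most counts over the 5 libraries together, had 59.9 normalized CPM in the control, 67.1 after 1 h, 171 and 119.5 in the 4 h pair and 77.0 after 8 h. Calb1, calbindin, with more counts than Prox1 in the control and at 1 h, had 102 normalized CPM in the control, 100.03 after 1 h, 89.1 and 72.4 in the 4 h pair and 60.6 after 8 h. So 3 of 5 were at least 2-fold lower in both 4 h libraries, Prox1 was higher in both and Calb1 was within 2-fold of 1 h, with none at 0.

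Among the other late-low genes, Kif26b, an atypical kinesin, had 35.1 normalized CPM in the control, 35.6 after 1 h, 13.1 and 10.3 in the 4 h pair and 18.4 after 8 h, and Cdc25b, a phosphatase of the cell cycle, had 12.9 normalized CPM in the control, 13.98 after 1 h, 5.16 and 5.55 in the 4 h pair and 7.18 after 8 h. Cys1, a protein of cilia, had 14.2 normalized CPM in the control, 10.8 after 1 h, 3.26 and 2.64 in the 4 h pair and 7.24 after 8 h. Their pairs differed by less than their distance from the 1 h library. Plk5, a polo-like kinase found in brain, had 14.2 normalized CPM in the control, 15.7 after 1 h, 2.43 and 4.81 in the 4 h pair and 1.94 after 8 h, and Lefty1, a secreted inhibitor of nodal signalling, had 6.52 normalized CPM in the control, 6.48 after 1 h, 0.890 and 2.48 in the 4 h pair and 3.99 after 8 h. Gm38029, an intronic TEC gene inside Egfem1, had 7.48 normalized CPM in the control, 7.90 after 1 h, 1.90 and 1.74 in the 4 h pair and 5.24 after 8 h.

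Further late-low genes, named after their values were seen, included Grm2, a presynaptic glutamate receptor, with 34.7 normalized CPM in the control, 31.4 after 1 h, 13.6 and 10.5 in the 4 h pair and 59.1 after 8 h. Neurod6, a transcription factor of pyramidal neurons, had 144 normalized CPM in the control, 145 after 1 h, 60.8 and 67.0 in the 4 h pair and 104 after 8 h. Inha, the inhibin subunit that pairs with the product of Inhba, had 6.73 normalized CPM in the control, 6.71 after 1 h, 2.85 and 2.91 in the 4 h pair and 3.42 after 8 h. B230303A05Rik is a transcribed pseudogene whose span ends inside Inhba on the opposite strand, with no shared exon bases in the annotation. It had 15.96 normalized CPM in the control, 13.2 after 1 h, 5.99 and 6.02 in the 4 h pair and 5.13 after 8 h. At 8 h, 18 of the 24 were within 2-fold of the control.

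Gene lists by role place these genes in the pathway. Over all genes compared, 1.56% were at least 2-fold higher and 0.724% at least 2-fold lower in both 4 h libraries, and 1327 of the 12428 had an unadjusted edgeR p under 0.05 in either direction. The edgeR test called 0 members of any of the 8 lists after adjustment. Counts by list at an unadjusted p under 0.05 also cover tested members that did not reach 5 normalized CPM. The like background for such counts is that over all 19768 genes tested, given with the edgeR test above.

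Of 21 immediate early transcription factors, 9 were in the shut-off class (Junb, Egr1, Egr2, Egr4, Nr4a1, Npas4, Klf2, Klf4 and Ier2) and 1, Klf10, in the late-start class. The median log2 ratio to 1 h was -0.94 in the first and -2.63 in the second 4 h library. Unadjusted, edgeR gave 10 at p under 0.05, and DESeq2 called 2, Klf10 and Egr3, neither of them in the shut-off class. Egr3 was lower at 4 h, with log2 ratios to 1 h of -0.999 and -1.20 in the pair. It narrowly missed the 2-fold limit of the class in the first 4 h library. Fos had 10.8 normalized CPM in the control, 998 after 1 h, 519 and 70.3 in the 4 h pair and 17.2 after 8 h, and Fosb had 3.51 normalized CPM in the control, 372 after 1 h, 238 and 60.1 in the 4 h pair and 9.74 after 8 h. Both were within 2-fold of their 1 h value in the first 4 h library but lower by 14.2-fold and 6.18-fold in the second. Fosl2, Jun, Atf3, Klf6 and Csrnp1 were above the 1 h value in the first 4 h library. Atf3, a stress-responsive repressor, had 0.652 normalized CPM in the control, 110.2 after 1 h, 142 and 54.3 in the 4 h pair and 4.44 after 8 h. Klf10, a zinc-finger factor downstream of transforming growth factor signalling, was higher in both 4 h libraries, with 31.6 normalized CPM in the control, 33.8 after 1 h, 76.4 and 98.8 in the 4 h pair and 114 after 8 h.

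Of 24 feedback regulators, 23 reached the minimum level, 0 were higher and 6 lower in both 4 h libraries. Btg2, Dusp1, Dusp5, Dusp6 and Per1 were in the shut-off class. Of the exons of Dusp5, 22.1% of the length is overlapped by a gene on the opposite strand. Tob1, a relative of Btg2, was lower at 4 h without having been 2-fold raised at 1 h. The medians were 0.01 and -0.77, edgeR unadjusted gave 7 at p under 0.05, and DESeq2 called 1. Dusp1, a phosphatase of mitogen-activated protein kinases, had 8.08 normalized CPM in the control, 87.8 after 1 h, 38.4 and 8.35 in the 4 h pair and 5.47 after 8 h. Dusp4, a relative that acts in the nucleus, had 19.0 normalized CPM in the control, 60.7 after 1 h, 144 and 76.4 in the 4 h pair and 25.3 after 8 h, the highest value being in the first 4 h library. Socs3, which dampens cytokine signalling, had 31 counts in the control, 60 after 1 h, 655 and 91 in the 4 h pair and 138 after 8 h, so it was 8.08-fold higher in the first than in the second 4 h library.

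Of 25 secreted and synaptic effectors, 24 reached the minimum level, and 6 were higher in both 4 h libraries and 0 lower. The 6 were Inhba, Nptx2, Krt75, Cda, Acan and Sorcs3, and the medians were 1.47 and 0.46. Krt75 and Cda encode neither secreted nor synaptic proteins and were placed in the list with earlier results of these data known. The unadjusted edgeR test gave 11 at p under 0.05, and DESeq2 called 5. Without this pair, a choice made after the data were seen, 4 of 22 were higher and 0 lower, the medians were 1.35 and 0.41, the unadjusted edgeR test gave 9, and DESeq2 called 3. Bdnf, the neurotrophin, had 43.6 normalized CPM in the control, 208 after 1 h, 753 and 316 in the 4 h pair and 96.6 after 8 h. Scg2, a secretogranin of dense-core vesicles, had 173 normalized CPM in the control, 536 after 1 h, 1650.2 and 714 in the 4 h pair and 364 after 8 h. Both were above 1 h in both 4 h libraries, but at least 2-fold only in the first. Arc, a regulator of receptor endocytosis that is itself an immediate early gene, had 147 normalized CPM in the control, 2019.8 after 1 h, 2590.2 and 927 in the 4 h pair and 151 after 8 h, higher than 1 h in the first and lower in the second. Sorcs3, a sorting receptor, had 63.3 normalized CPM in the control, 64.6 after 1 h, 185 and 139.7 in the 4 h pair and 207 after 8 h, and was at its highest at 8 h.

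Of 13 cytokines and chemokines, 2 reached the minimum level. Beside Ccl3, Ccl4 had 3 counts in the control, 14 after 1 h, 221 and 20 in the 4 h pair and 7 after 8 h, high in the first 4 h library only. The medians of the pair of genes were 4.10 and 0.70. Neither of these genes had an unadjusted edgeR p under 0.05, and DESeq2 called 0 of the 2 to which it gave an adjusted p. The other members had at most 79 counts in any of the 3 libraries. The 1 member of the list with an unadjusted edgeR p under 0.05 was Il1b, which did not reach the minimum level and was lower at 4 h. It had 2 counts in the control, 32 after 1 h, 10 and 2 in the 4 h pair and 8 after 8 h. Tnf had 0 counts in the control, 5 after 1 h, 22 and 2 in the 4 h pair and 8 after 8 h.

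Of 15 reactive astrocyte genes, 14 reached the minimum level, and 5 were higher in both 4 h libraries and 0 lower, with medians of 1.36 and 0.75. The 5 were Lcn2, Serpina3n, Timp1, Osmr and Ptx3. The unadjusted edgeR test gave 8 at p under 0.05, and DESeq2 called 4 of the 12 to which it gave an adjusted p, which left out Timp1 and Ptx3. Osmr, a receptor subunit for oncostatin M, had 4.72 normalized CPM in the control, 5.97 after 1 h, 47.2 and 22.9 in the 4 h pair and 24.7 after 8 h. Serpina3n, a protease inhibitor, had 28.3 normalized CPM in the control, 29.6 after 1 h, 81.5 and 64.0 in the 4 h pair and 81.9 after 8 h. Gfap, the intermediate filament of astrocytes, had 221 normalized CPM in the control, 271 after 1 h, 595 and 509.6 in the 4 h pair and 587 after 8 h. These 3 were higher in both 4 h libraries than at 1 h and stayed above the control at 8 h, though Gfap missed the 2-fold limit in the second 4 h library. Timp1, an inhibitor of metalloproteases, had 3 counts in the control, 4 after 1 h, 93 and 16 in the 4 h pair and 13 after 8 h.

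Of 16 chaperones and genes of the unfolded protein response, 15 reached the minimum level, 1 was higher in both 4 h libraries and 0 lower, with medians of -0.17 and -0.58. The 1 was Chac1, a glutathione-degrading enzyme, with 4.97 normalized CPM in the control, 4.72 after 1 h, 12.8 and 11.7 in the 4 h pair and 7.24 after 8 h. The stress-induced heat shock genes Hspa1a and Hspa1b, near-identical copies, split the pair: Hspa1a had 4.82 normalized CPM in the control, 8.01 after 1 h, 93.5 and 5.02 in the 4 h pair and 7.58 after 8 h, and Hspa1b had 6.73 normalized CPM in the control, 8.01 after 1 h, 106 and 7.34 in the 4 h pair and 10.7 after 8 h. Hspa5, the chaperone of the endoplasmic reticulum, had 350.4 normalized CPM in the control, 663 after 1 h, 556 and 309.9 in the 4 h pair and 444 after 8 h. The unadjusted edgeR test gave 4 at p under 0.05, and DESeq2 called 0.

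Of 29 neuronal channels and receptors, 1 was higher (Kcna4) and 1 lower (Kcnj2) in both 4 h libraries, with medians of -0.09 and -0.19. Kcna4, a potassium channel of axons, had 56.9 normalized CPM in the control, 53.1 after 1 h, 217 and 114 in the 4 h pair and 70.2 after 8 h. Gabra4, a subunit of receptors for gamma-aminobutyric acid, had 101 normalized CPM in the control, 109 after 1 h, 219 and 197 in the 4 h pair and 100.5 after 8 h, at least 2-fold higher only in the first 4 h library. The unadjusted edgeR test gave 6 at p under 0.05, and DESeq2 called 2. Of 12 glucocorticoid target genes, 1 was higher, Mt2, a metallothionein with 40.2 normalized CPM in the control, 66.0 after 1 h, 221 and 147 in the 4 h pair and 91.0 after 8 h, and 0 were lower, with medians of 0.26 and 0.46. Exons of Mt2 are overlapped over 73.5% of their length by a gene on the opposite strand. Here the unadjusted edgeR test gave 3 at p under 0.05, and DESeq2 called 1.

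**Figure D5:**
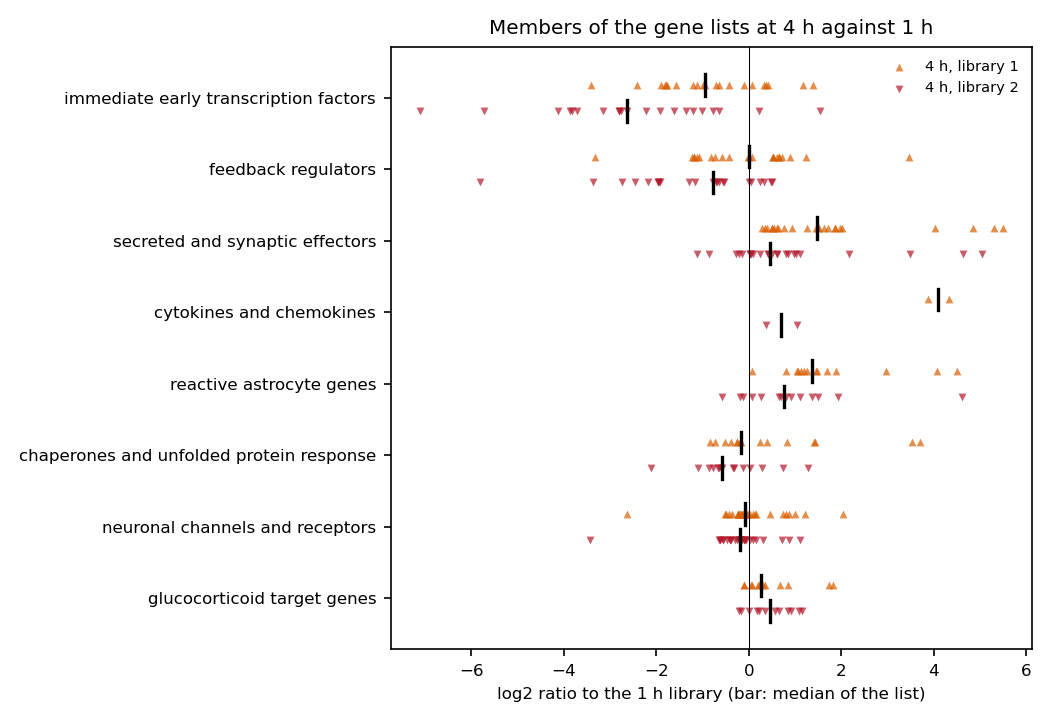
Log2 ratio to the 1 h library (horizontal axis) of each member of the 8 gene lists that reached the minimum level, with 1 symbol for each 4 h library and a bar at the median of the list. The immediate early factors have medians of -0.94 and -2.63, and the secreted and synaptic effectors of 1.47 and 0.46, in the first and the second 4 h library.

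The genes of the classes were then looked up in the promoter windows of RefSeq (GRCm38.p6, 250 bases before to 50 after each start), which matched 83 of the 117 late-start, 7 of the 9 climbing, 27 of the 52 shut-off and 19 of the 24 late-low genes, and 9399 of the 12428 genes compared. Shares are of matched genes with the letters in at least 1 window. Letters were searched on both strands: the cyclic AMP response element TGACGTCA, the AP-1 element TGANTCA, the EGR element GCGNGGGCG and the CArG box. The first 2 of these motifs have different spacing, so a match to 1 is not a match to the other. A match is a description, not a site or a cause.

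The cyclic AMP response element lay in the windows of 5 of 27 shut-off genes (Arl4d, Btg2, Dusp1, Nfkbid and Ppp1r15a), of 1 of 83 late-start genes (Sstr2), of 3.77% of the 9399 matched genes and of 2.03% of all genes with a window. The AP-1 letters lay in those of 13 of 83 late-start genes (15.7%), among them Srxn1, Sult2b1, Osmr and Plet1, of 1 of 7 climbing genes (Bag3), of 0 of 27 shut-off genes, of 5.80% of the 9399 and of 8.97% of all genes with a window. The EGR letters lay in 9 of 83 late-start and 4 of 27 shut-off genes (Btg2, Klf2, Klf4 and Nr4a1), beside 13.4% of the 9399 and 6.27% of all genes with a window. The CArG box lay in 3 of 27 shut-off genes (Arid3b, Dusp5 and Egr2) and 2 of 83 late-start genes, beside 1.53% of the 9399 and 1.81% of all genes with a window. In the late-low class the AP-1 letters lay in 1 of 19 and the EGR letters in 3 of 19. These shares were not tested.

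The first set shows shut-off genes, chosen because their windows hold the cyclic AMP response element or the CArG box; capitals mark these motifs and, in Btg2, also the EGR letters. The windows lie at chr1:134079106-134079405 on the minus strand for Btg2, chr17:26508423-26508722 on the minus strand for Dusp1 and chr10:67537316-67537615 on the plus strand for Egr2, the last being 1 of 5 windows of its gene.
Btg2: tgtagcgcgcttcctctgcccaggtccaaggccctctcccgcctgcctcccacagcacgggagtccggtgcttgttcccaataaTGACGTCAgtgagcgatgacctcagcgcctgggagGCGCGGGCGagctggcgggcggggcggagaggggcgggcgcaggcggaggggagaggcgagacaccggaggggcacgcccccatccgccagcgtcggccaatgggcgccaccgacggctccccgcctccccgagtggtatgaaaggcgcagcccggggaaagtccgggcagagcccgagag
Dusp1: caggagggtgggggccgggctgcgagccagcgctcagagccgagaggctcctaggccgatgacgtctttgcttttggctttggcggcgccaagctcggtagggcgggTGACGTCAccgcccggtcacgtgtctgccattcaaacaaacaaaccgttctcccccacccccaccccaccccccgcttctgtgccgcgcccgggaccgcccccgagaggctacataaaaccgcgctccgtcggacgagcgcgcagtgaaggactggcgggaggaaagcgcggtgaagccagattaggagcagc
Egr2: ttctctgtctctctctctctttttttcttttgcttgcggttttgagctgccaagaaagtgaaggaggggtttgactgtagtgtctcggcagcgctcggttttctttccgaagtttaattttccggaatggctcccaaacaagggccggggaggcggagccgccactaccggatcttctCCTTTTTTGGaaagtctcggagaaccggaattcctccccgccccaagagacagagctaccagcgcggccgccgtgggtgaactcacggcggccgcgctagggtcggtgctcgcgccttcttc

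The second set shows 3 late-start genes and the climbing gene Bag3, chosen because their windows hold the AP-1 letters, in capitals. Srxn1 holds them at 2 places. The windows lie at chr2:152105274-152105573 on the plus strand for Srxn1, chr7:45742429-45742728 on the minus strand for Sult2b1 (1 of 2 windows), chr15:6874264-6874563 on the minus strand for Osmr and chr7:128523333-128523632 on the plus strand for Bag3.
Srxn1: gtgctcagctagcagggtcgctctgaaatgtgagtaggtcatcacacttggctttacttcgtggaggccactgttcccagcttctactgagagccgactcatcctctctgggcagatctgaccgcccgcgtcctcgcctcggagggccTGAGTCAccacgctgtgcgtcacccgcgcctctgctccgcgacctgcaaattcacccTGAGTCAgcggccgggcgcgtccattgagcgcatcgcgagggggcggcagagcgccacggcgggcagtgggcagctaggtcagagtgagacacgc
Sult2b1: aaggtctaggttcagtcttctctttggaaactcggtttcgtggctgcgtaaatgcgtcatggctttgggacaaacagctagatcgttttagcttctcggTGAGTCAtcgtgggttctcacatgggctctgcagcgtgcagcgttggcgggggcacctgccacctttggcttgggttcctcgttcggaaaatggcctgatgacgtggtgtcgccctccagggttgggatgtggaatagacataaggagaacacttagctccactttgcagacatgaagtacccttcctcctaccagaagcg
Osmr: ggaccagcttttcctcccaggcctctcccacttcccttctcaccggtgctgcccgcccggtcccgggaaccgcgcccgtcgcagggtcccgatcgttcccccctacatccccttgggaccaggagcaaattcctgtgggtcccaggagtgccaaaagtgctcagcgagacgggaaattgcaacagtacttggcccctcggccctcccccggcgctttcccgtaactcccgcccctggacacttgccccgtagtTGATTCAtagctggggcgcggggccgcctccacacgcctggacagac
Bag3: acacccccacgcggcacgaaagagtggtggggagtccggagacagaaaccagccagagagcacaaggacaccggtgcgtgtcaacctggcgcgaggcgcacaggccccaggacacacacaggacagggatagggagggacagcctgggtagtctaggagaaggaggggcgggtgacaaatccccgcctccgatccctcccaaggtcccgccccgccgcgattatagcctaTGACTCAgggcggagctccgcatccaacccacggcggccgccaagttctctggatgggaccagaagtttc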

How the data were processed

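The authors prepared stranded total RNA libraries, aligned the paired-end reads with STAR 2.5.1b to GRCm38.p4 and deposited counts of reads per gene, made with HTSeq, whose version, strand setting and annotation are not given. Summary lines were dropped. The analysis ran edgeR 4.0.16 under R 4.3.3 (TMM, filterByExpr, quasi-likelihood F test on all 5 libraries in 4 groups, contrast 4 h minus 1 h, Benjamini-Hochberg over 19768 genes) and DESeq2 1.42.0. Log2 ratios used a prior count of 2. Genes were named by class, the 12 late-start and 12 shut-off and the 8 climbing and 8 late-low genes with the largest smaller ratio, with members of 8 gene lists and 16 marker lists as examples. The members and lists were chosen with earlier results of these data known. The tests were checked on simulated data. Positions came from GENCODE M21. Alternatives were other size factors, filters, thresholds, DESeq2, the 1 h and 4 h libraries alone, and leaving out a 4 h library. Figures used Python 3.11.15 and matplotlib 3.10.9.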

Additional observations from a re-analysis of the deposited data

Results flagged for a closer look

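The share of all deposited reads that fell on no gene, which enters no comparison, was above the control (24.7%) in each library compared here. It was 29.02% at 1 h, 33.12% in the first 4 h library and 25.32% in the second. Their part in the results was not tested.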

How the results depend on the processing

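Counts of called genes depended on the test and the scaling. Genes called higher numbered 0 with median-of-ratios factors, 46 with library size alone, 94 with DESeq2 and 483 without a filter on low counts, against 1; genes called lower numbered 21 with library size alone, 15 with DESeq2 and 242 without a filter, against 0, and the cause was not tested. With the 1 h and 4 h libraries alone the counts were 1 and 0. A minimum of 1 normalized CPM admitted more genes and gave 410 at least 2-fold higher, 182 at least 2-fold lower, 182 late-start, 87 shut-off, 17 climbing and 49 late-low genes. A 3-fold limit left 43 late-start, 24 shut-off, 4 climbing and 5 late-low genes. Leaving out either 4 h library asks for agreement in fewer libraries and gave 312 to 629 genes higher, 250 to 285 lower, 159 to 417 late-start, 52 to 138 shut-off, 12 to 46 climbing and 47 to 141 late-low genes; the lower late-start and higher shut-off counts came without the first. Other size factors and other limits at 1 h kept the fold counts within 1.5-fold. Depth limits ratios of genes with few counts at 1 h, and 1 library at 1 h gives no measure of spread there.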

Other observations

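The following genes were chosen after their values were seen. Sel1l2 had 0 counts in the control, 0 after 1 h, 0 and 266 in the 4 h pair and 0 after 8 h; only the second 4 h library held reads of this gene. CT010467.1, annotated as ribosomal RNA and overlapped by other genes on both strands, had 54.2 normalized CPM in the control, 29.3 after 1 h, 164 and 157 in the 4 h pair and 36.6 after 8 h. Fem1b, a substrate receptor of a ubiquitin ligase and outside the classes, had 253 normalized CPM in the control, 231 after 1 h, 462 and 481 in the 4 h pair and 358 after 8 h. It lay closest above the 2-fold limit among the genes higher in both 4 h libraries.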
